A study of Mus musculus with 2 samples.

Results

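The genes described here encode the spectrin-ankyrin skeleton, the protein net under the red cell membrane. They were 9 listed genes, Sptb, Sptan1, Sptbn1, Ank1, Epb41, Add1, Add2, Dmtn and Tmod1, of 43346 Ensembl genes in the deposited gene tables, with all 81 of their transcripts in the deposited transcript tables. All 9 genes and all 81 transcripts were found by identifier. The study sequenced polyA RNA from G1E-ER4, an immortalised mouse erythroid line in which GATA1 activity is restored, after 14 hours with 10 nM 17beta-estradiol. G1E cells lack GATA1, the main erythroid transcription factor, and the ER4 line carries GATA1 joined to the hormone-binding part of the estrogen receptor, so that estradiol turns it on. Both libraries, named replicate 1 and replicate 2 in the labels, had the same treatment and time and formed 1 group. Their labels point to a single biosample record, and whether they were separate cultures is not stated, so differences between them may in part be technical. No untreated sample was analysed here, so no value below is a response to estradiol.

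Spectrin is built of alpha and beta chains that lie side by side and join end to end into long flexible rods. Ankyrin ties beta-spectrin to the membrane through band 3, and the tails of spectrin meet at junctions of short actin filaments, where protein 4.1, adducin, dematin and tropomodulin hold, bundle or cap the actin. Loss of red cell spectrin or ankyrin gives fragile, rounded red cells, and splicing of several of these transcripts is known to change as erythroblasts mature.

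The libraries held 38395481 (replicate 1) and 60097379 (replicate 2) estimated fragment counts, a depth ratio of 1.57. Of 7 erythroid marker genes, 7 reached at least 1 TPM (a level divided by transcript length and scaled to the library) in both libraries, and their levels summed to 9836 and 24701 TPM. Most of each sum was Hba-a1, at 7118 and 21029 TPM. Gata1, at 1132 and 2656 TPM, cannot be read as a marker from the cells' own gene, because the line carries an introduced GATA1. Among 7 megakaryocyte markers, 4 reached 1 TPM in both, with summed levels of 76.5 and 80.0 TPM, and Ppbp had 0 counts in both. The granulocyte and macrophage list had 2 of 6 at that level, summing to 23.43 and 21.01 TPM, with Elane and Lyz2 at 0 counts. Of the other lists, 1 of 3 neuron markers and 0 of 4 muscle markers reached 1 TPM in both libraries. Of the muscle genes, Myh4 and Ckm had 0 counts in both libraries, Acta1 had 0 and 13 counts and Des had 25 and 67.

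Several of the differences described below lie in which exons a transcript carries, so the sequences that tell the forms apart are given first. They are spliced transcript sequences of GENCODE M21 on GRCm38, written 5′ to 3′. For Epb41, the gene of protein 4.1R, the 63-base exon that codes for part of the spectrin-actin binding domain is in capitals in the first line. The second line has the junction that joins the same neighbouring exons without it, with 2 bases on each side of the junction in capitals. The lower-case bases of the first line also hold a 57-base exon that Epb41-213 carries and Epb41-215 lacks.
Epb41-213 (chr4:131957800-131967807, minus strand): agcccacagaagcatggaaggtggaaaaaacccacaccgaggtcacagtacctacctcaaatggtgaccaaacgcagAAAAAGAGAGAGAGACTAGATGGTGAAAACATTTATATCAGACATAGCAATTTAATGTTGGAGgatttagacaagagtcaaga
Epb41-215 (same interval): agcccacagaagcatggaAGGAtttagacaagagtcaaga
For Sptb, the gene of red cell beta-spectrin, both coding ends follow the same 20 lower-case bases. Capitals mark the own coding end of Sptb-202 with its stop codon, and the first 60 own coding bases of Sptb-201.
Sptb-202 (chr12:76597657-76597745, minus strand): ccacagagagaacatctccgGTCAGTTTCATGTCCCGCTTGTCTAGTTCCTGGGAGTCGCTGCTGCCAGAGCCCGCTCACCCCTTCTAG
Sptb-201 (chr12:76587531-76597745, minus strand): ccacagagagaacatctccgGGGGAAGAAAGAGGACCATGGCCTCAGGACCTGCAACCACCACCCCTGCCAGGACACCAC
For Ank1, the gene of red cell ankyrin, 3 transcripts begin their coding sequence in 3 different first exons. The first coding bases are shown, up to the end of the first exon for Ank1-207 and Ank1-205 and 90 of 219 bases for Ank1-201, with the start codon in capitals.
Ank1-207 (chr8:23058632-23058670, plus strand): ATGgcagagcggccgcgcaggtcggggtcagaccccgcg
Ank1-205 (chr8:23035231-23035245, plus strand): ATGggcttctgtaaa
Ank1-201 (chr8:23139277-23139366, plus strand): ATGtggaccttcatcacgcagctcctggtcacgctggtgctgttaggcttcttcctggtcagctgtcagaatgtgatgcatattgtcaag

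The 9 genes fell into 2 sets separated by a wide gap. Sptb, Add1, Ank1, Add2, Dmtn and Epb41 were each at more than 100 TPM in both libraries, and Sptan1, Tmod1 and Sptbn1 were each between 1 and 3 TPM. Every one of the 9 was at or above 1 TPM in each library, and 6 of 9 were at or above 50 TPM. Of the 8062 nuclear protein-coding genes at 1 TPM or more in both libraries, 24.1% reached 50 TPM, and the median level was 20.3 TPM against 169 TPM for the 9 genes. RNA from a whole culture cannot tell fewer expressing cells from less RNA per cell.

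**Figure D1:**
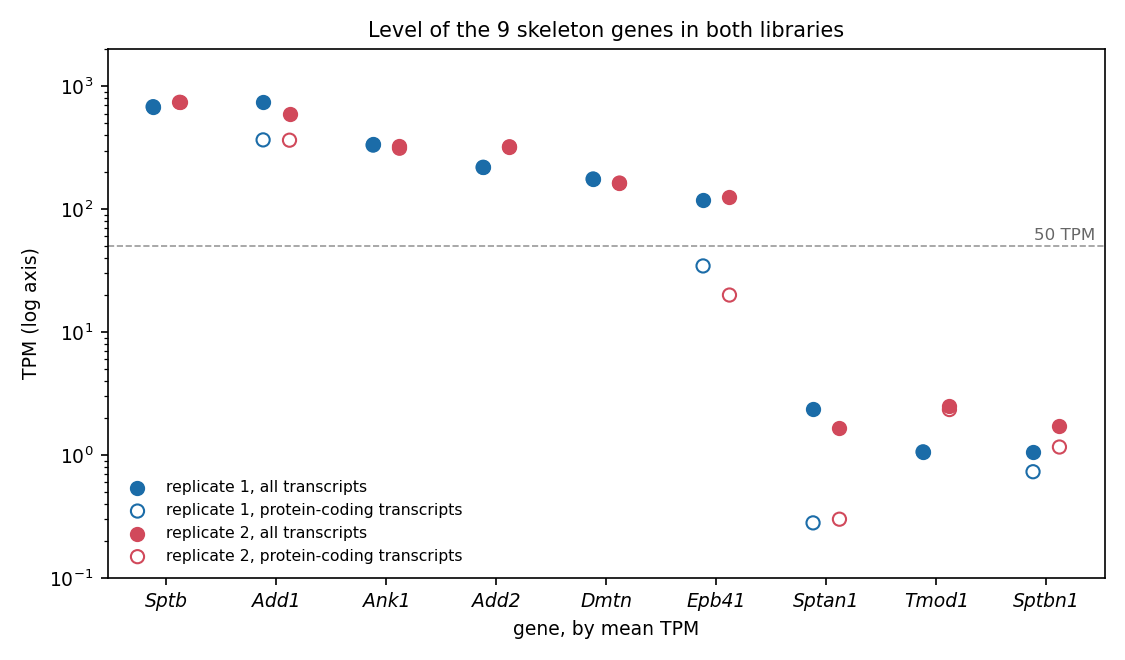
TPM of each gene (log axis) in replicate 1 (blue) and replicate 2 (red), over all transcripts (filled) and over transcripts annotated as protein-coding (open, hidden where equal). The 6 higher genes lie at 118 TPM or more, the other 3 at 2.52 TPM or less, and the open points lie far below the filled ones for Epb41 and Sptan1.

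By mean TPM Sptb was the highest of the 9, though Add1 was above it in replicate 1. Sptb (ENSMUSG00000021061.11, chr12:76580488-76710547; gene positions here are on GRCm38) stood at 682 TPM (replicate 1) and 740 TPM (replicate 2), a mean of 711 ± 40.9 TPM (SD, n = 2), and ranked 193 among the expressed protein-coding genes. The libraries differed by less than 10% of that level. Sptbn1 (ENSMUSG00000020315.14, chr11:30099395-30268175), the beta-spectrin of most other tissues, was at 1.05 and 1.71 TPM from 220 and 625 counts, 1.38 ± 0.467 TPM (SD, n = 2). Within each library Sptb exceeded Sptbn1 by 649-fold and 433-fold. The log2 ratio of TPM + 0.1, 8.94 ± 0.38 (SD, n = 2), was larger than the spread, meaning here that the sign was the same in each library and the mean exceeded 2 times the range between them.

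Sptan1 (ENSMUSG00000057738.9, chr2:29965560-30031451), the alpha chain of non-erythroid cells, was at 2.35 and 1.67 TPM, 2.01 ± 0.481 TPM (SD, n = 2), from 88 and 142 counts. Most of the Sptan1 level lay on a 457-base retained-intron transcript, Sptan1-207, at 2.05 and 1.35 TPM from 19 and 22 counts. Sptan1-204 and Sptan1-202, which code for the protein, held mean shares of 7.67% and 6.69%. Its protein-coding transcripts summed to 0.280 and 0.300 TPM.

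Sptb exceeded Sptan1 by 290-fold in replicate 1 and 443-fold in replicate 2, a log2 ratio of 8.41 ± 0.41 (SD, n = 2) that was larger than the spread. In scaled counts not divided by length the log2 ratio was 10.97. Base composition differed among these genes. The most abundant transcript had a GC content of 56.2% for Sptb and 47.6% for Sptbn1. For Sptan1 the value was 54.9%, but there the most abundant transcript is the retained-intron Sptan1-207 and not one that codes for the protein. Over expressed protein-coding genes the median level rose from 6.58 TPM at a GC content under 45% to 42.2 TPM at 55% and over. The part of GC content in the spectrin ratios was not tested.

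Ank1 (ENSMUSG00000031543.14, chr8:22974844-23150497) was the only ankyrin gene above 50 TPM. It stood at 341 and 324 TPM, 333 ± 11.8 TPM (SD, n = 2), from 64920 and 96112 counts. Sptb exceeded it by 2.00-fold and 2.28-fold, a log2 ratio of 1.09 ± 0.13 (SD, n = 2) that was larger than the spread. Ank2, the ankyrin best known from heart muscle, had 20.2 and 11.0 TPM from only 345 and 546 counts. Ank3, the ankyrin of axon initial segments, had 1 count in replicate 1 and 0 in replicate 2.

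**Figure D2:**
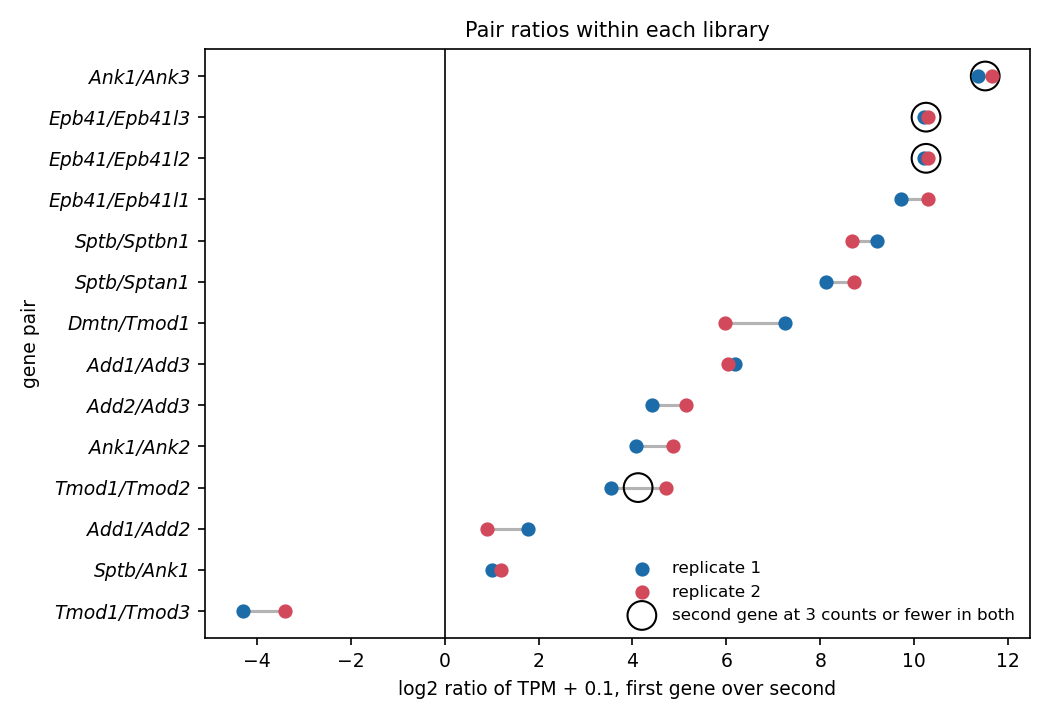
Log2 ratio of TPM + 0.1 (x axis) for each of 14 gene pairs (y axis) in replicate 1 (blue) and replicate 2 (red). Rings mark pairs whose second gene had 3 counts or fewer in both libraries, where the plotted ratio depends on the added 0.1. Epb41 over Epb41l1 has no ring but also depends on it, with Epb41l1 at 5 and 0 counts. Ratios for the same pair lie close together except for Dmtn over Tmod1, Tmod1 over Tmod2 and a few others, and 1 pair, Tmod1 over Tmod3, lies below 0.

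Protein 4.1R, which tightens the contact of spectrin with actin, was the lowest of the 6 higher genes. Epb41 (ENSMUSG00000028906.11, chr4:131923413-132075321) was at 118 and 126 TPM, 122 ± 5.69 TPM (SD, n = 2). Of its paralogs, Epb41l2, Epb41l3, Epb41l4a and Epb41l4b had 0 counts in both libraries, and Epb41l1 had 5 and 0. Epb41l5 was the highest of the other 4.1 genes, at 3.61 and 5.64 TPM. Epb41 counts were at least 4978-fold higher than those of Epb41l2 or Epb41l3 against a floor of 3 counts per library.

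Adducin caps the fast-growing end of actin filaments and recruits spectrin as a dimer of an alpha chain (Add1) with a beta (Add2) or gamma (Add3) chain. Add1 (ENSMUSG00000029106.10, chr5:34573664-34632308) was at 747 and 599 TPM, 673 ± 104 TPM (SD, n = 2). Add2 (ENSMUSG00000030000.8, chr6:86028681-86124409) was at 219 and 322 TPM, 270 ± 73.1 TPM (SD, n = 2). In TPM over all transcripts Add1 was the higher of the pair in each library, but the ratio was 3.42-fold in replicate 1 and 1.86-fold in replicate 2, and at 1.33 ± 0.62 on the log2 scale (SD, n = 2) it was not larger than the spread. In scaled counts not divided by length the ratio was 1.53-fold and 0.988-fold, and over transcripts with a whole coding sequence Add1, at 66.6 and 53.9 TPM, lay below Add2. Add3 was at 10.1 and 9.07 TPM. Its difference from Add1 (log2 6.11 ± 0.11) and from Add2 (log2 4.78 ± 0.50; SD, n = 2 for each) was larger than the spread.

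Dematin bundles actin at the junctions and links them to the glucose transporter. Dmtn (ENSMUSG00000022099.12, chr14:70601263-70636048) was at 176 and 163 TPM, 169 ± 8.93 TPM (SD, n = 2). Tropomodulin 1 caps the slow-growing end of the same filaments, and Tmod1 (ENSMUSG00000028328.9, chr4:46038935-46116032) was at 1.06 and 2.52 TPM, 1.79 ± 1.03 TPM (SD, n = 2), from 97 and 384 counts. Dmtn exceeded Tmod1 by 166-fold and 64.7-fold. Tmod3, a tropomodulin of many tissues, was at 22.7 and 27.3 TPM, and exceeded Tmod1 by 21.4-fold and 10.8-fold, a log2 ratio of Tmod1 over Tmod3 of -3.84 ± 0.64 (SD, n = 2) that was larger than the spread. Tmod2, the neuronal form, had 0 counts in both libraries, and Tmod1 counts were at least 32.3-fold higher against a floor of 3 counts per library, without correction for length. Exons of Tstd2 on the opposite strand overlap those of Tmod1, by up to 1287 bases for an exon, and Tstd2 was at 8.67 and 9.07 TPM. Whether counting used strand is not given in the sources used here, so reads from this overlap cannot be told apart.

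Of the 14 pairs, 13 were larger than the spread. These include the pairs with Ank3, Epb41l1, Epb41l2, Epb41l3 and Tmod2, each at 5 counts or fewer in each library. For those the ratio depends on the added 0.1 and on the first gene, so passing the rule says little. The order among the 9 members themselves was less firm. Between neighbours in the order of mean TPM, 3 of 8 steps were larger than the spread, namely Add1 over Ank1 (log2 1.01 ± 0.17), Dmtn over Epb41 (0.47 ± 0.14) and Epb41 over Sptan1 (5.87 ± 0.40; SD, n = 2 for each). Sptb and Add1 changed places between libraries, as did Sptan1 and Tmod1. Ank1 over Add2, Add2 over Dmtn and Tmod1 over Sptbn1 kept their direction without exceeding the spread. In scaled counts not divided by length, the step from Add1 to Ank1 turned round, at -1.0 on the log2 scale. In the same unit Dmtn over Epb41, at 0.31, was no longer larger than the spread, and Sptb over Add1, at 2.57, became so.

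Of 36 other skeleton and membrane genes, 22 were at or above 1 TPM in each library and 7 at or above 50 TPM. Actb, the main actin of non-muscle cells, led the actin, tropomyosin and capping class at 328 and 1385 TPM, and Tpm2 was under 0.1 TPM in both. Slc2a1, a glucose transporter, led the membrane anchors at 178 and 250 TPM, and 10 of 12 anchors reached 1 TPM. Epb42, which binds band 3 beside ankyrin, was below that at 0.67 and 0.80 TPM. Sptbn4, another beta-spectrin gene, was at 2.41 and 2.30 TPM. Sptbn5 was under 0.1 TPM in both libraries, as was Lmod1 among the tropomodulins.

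The 2 libraries were then compared gene by gene to see how far the members differ between samples of the same condition. An exact two-sided binomial test on rounded estimated counts, with Benjamini-Hochberg adjustment over all 11230 genes tested, called genes with an adjusted p under 0.05 and at least a 1.5-fold difference. It compares these libraries, not conditions. It called 41.4% of all genes tested, 24.3% higher in replicate 2 and 17.1% higher in replicate 1. Of the 9 members 3 were called, all higher in replicate 2, which is not far from the share over all genes. Their median size of log2 ratio was 0.24 against 0.54 over all genes tested.

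Tmod1 differed most, at 2.39-fold in scaled counts (95% exact interval 1.92 to 3.03; adjusted p = 3.11e-16, exact binomial test). Sptbn1 followed at 1.72-fold (1.47 to 2.02) and Add2 at 1.59-fold (1.56 to 1.62), where the intervals cover counting error only. Epb41 was 1.34-fold and Sptb 1.18-fold higher in replicate 2, and both were under the fold limit. Add1, Dmtn and Sptan1 lay within 5% of equality in scaled counts, at 1.03-fold, 1.01-fold and 0.976-fold. The interval of Sptan1 was wide, 0.745 to 1.29, and by TPM Sptan1 was at 0.711-fold and Add1 at 0.803-fold. In scaled counts Ank1 was the member furthest toward replicate 1, at 0.898-fold. By fold of TPM in place of counts, 2 members were called, without Add2, and 5 rather than 7 of the 9 were higher in replicate 2. At a fold limit of 2, Tmod1 alone was called of the members, beside 21.8% of all genes tested. Of the erythroid markers, 5 of 7 were called higher in replicate 2, against 24.3% of all genes tested. Hba-a1 was among the 5, as was Gata1, which cannot be read as a marker here. Klf1, at 0.571-fold, was called higher in replicate 1, against 17.1% of all genes tested. The part of these marker differences in the values of Add2, Sptbn1 and Tmod1 was not tested.

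**Figure D3:**
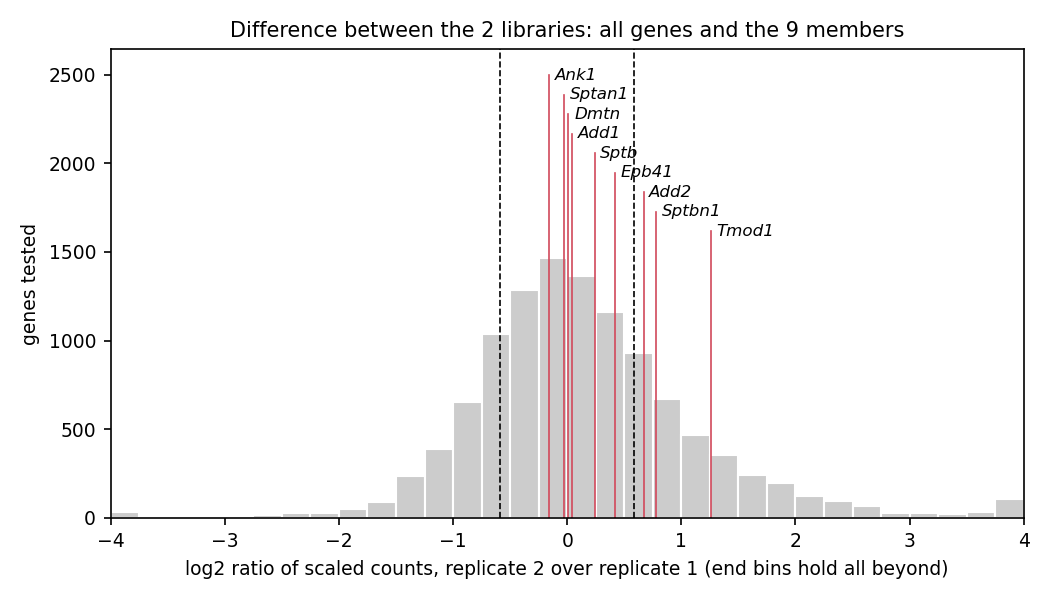
Number of genes tested (y axis) by log2 ratio of scaled counts, replicate 2 over replicate 1 (x axis), with the 9 members as red lines and the 1.5-fold limits dashed. Tmod1, Sptbn1 and Add2 lie to the right of the upper limit and the other 6 lie between the limits.

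The transcript tables place each gene's level on annotated forms. Of the 81 transcripts, 23 held a mean share of at least 5% of their gene's TPM and 27 were at 0 TPM in both libraries. The most abundant transcript was the same in both libraries for 7 of 9 genes, and differed for Add1 and Sptbn1. Of the 5003 genes with a mean of at least 5 TPM and 2 or more transcripts, 77.0% had the same leading transcript. The share of TPM that moved between transcripts from one library to the other had a median of 15.4% over the 5 members in that set and of 14.0% over all of it. Sptb moved by 1.34%, Dmtn by 10.3%, Add1 by 15.4%, Ank1 by 24.6% and Epb41 by 26.2%. These shares are estimates from fragments that fit several forms, and a short form gains TPM from few counts.

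**Figure D4:**
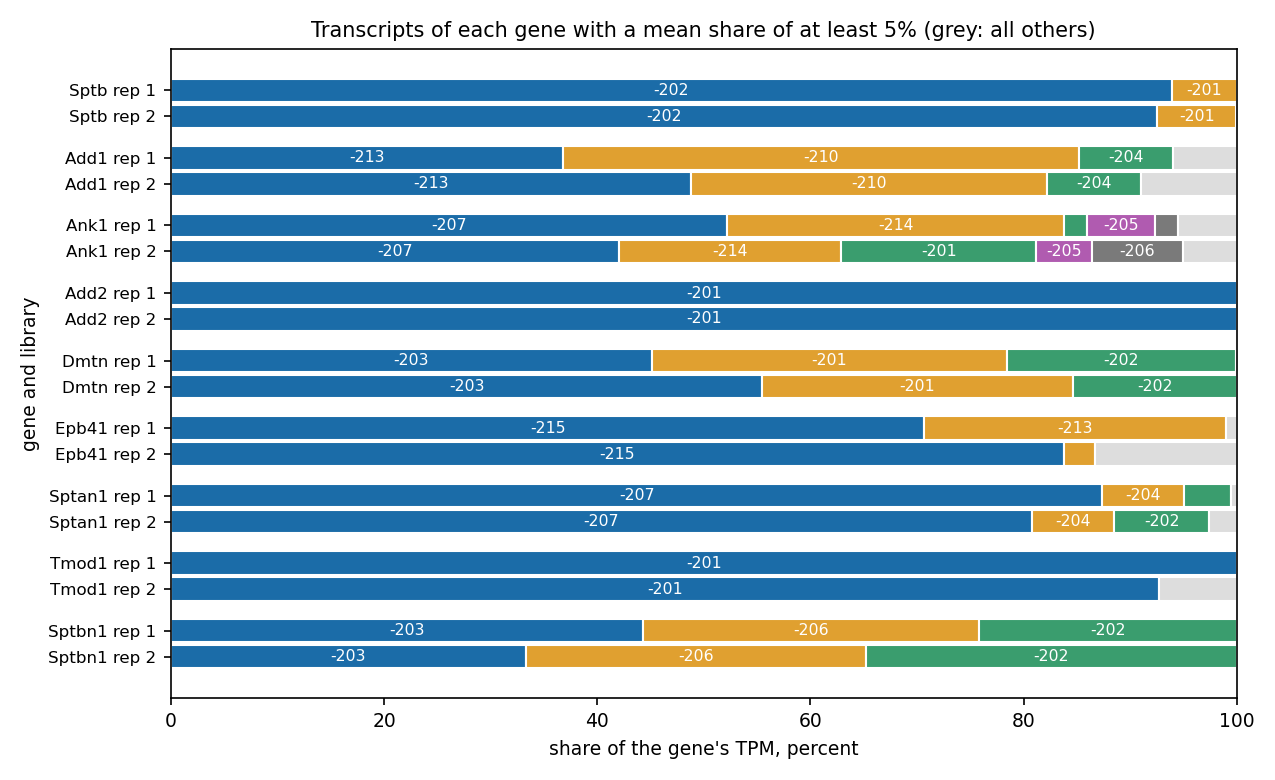
Share of each gene's TPM (x axis, percent) held by each transcript with a mean share of at least 5%, with 1 bar for each gene and library (y axis) and all other transcripts in grey. Sptb is nearly all Sptb-202 in both libraries, and the grey and small parts of Epb41 and Ank1 differ between libraries.

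Sptb was almost entirely the form with the shorter end. Sptb-202 held 93.9% and 92.5% of the gene's TPM (640 and 685 TPM) and Sptb-201 the other 6.12% and 7.46% (41.8 and 55.2 TPM). Both start in the same group of first exons and share 6341 coding bases. The coding sequence of Sptb-202 then runs on through the exon for 22 own codons to a stop, and that of Sptb-201 continues for 214 own codons in further exons. The longer end is the form known from muscle and brain, and carries a pleckstrin homology domain that binds membrane lipid. The shorter end is the one known from red cells. The share of the shorter end, 93.2 ± 0.942% (SD, n = 2), came from 154668 and 295218 counts.

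Sptbn1 was split over forms on few counts. Sptbn1-203, which ends short, held 44.3% and 33.3% (127 and 277 counts), Sptbn1-202, which ends long, 24.2% and 34.8% (63 and 261 counts), and the retained-intron Sptbn1-206 held 31.5% and 31.9%. Which of Sptbn1-203 and Sptbn1-202 was higher changed between the libraries.

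Ank1 used several start sites. The group of first exons at chr8:23058311, led by Ank1-207, held 57.3% and 46.5% of the TPM, and the group at chr8:23035128, led by Ank1-205 and Ank1-206, held 8.53% and 13.9%. These forms differ at the first coding bases printed above and share nearly all that follows: 5571 of the 5661 coding bases of Ank1-205 are also in Ank1-207. Ank1-207 alone was at 178 and 136 TPM, 52.2% and 42.0% of the gene. Its 43650 and 59542 counts had posterior standard deviations of 4024 and 3646 counts, and by posterior means its share was 47.5% and 39.2%. Ank1-209, at 0 TPM and with a start in the group at chr8:22975136, had posterior standard deviations of 4033 and 3596 counts. The division between these forms, and so between their start sites, is less firm than the shares alone show. Ank1-214, a model with no annotated start that lies mostly (90.5% of its bases) in exons of Ank1-207, held 31.6% and 20.9%.

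An internal start at chr8:23139105, late in the gene, differed most between the libraries. Ank1-201, which begins there and codes for 156 residues, had 7.36 TPM in the first library and 59.4 TPM in the second, or 2.16% and 18.3% of the gene. It had 198 and 2824 counts, with posterior standard deviations of 3.53 and 7.05 counts in the deposited tables. Replicate 2 was thus far above replicate 1 for this form, while Ank1 as a whole did not differ by the 1.5-fold limit. Of its 468 coding bases, 150 are shared with Ank1-207, and the rest begin with the bases printed above. Small ankyrins of this kind, with an own start and a membrane-spanning beginning, are known from striated muscle. The 4 muscle markers summed to 0.290 TPM in replicate 1 and 0.620 TPM in replicate 2. Myh4 and Ckm were at 0 counts in both libraries, while Acta1, at 0 and 13 counts, was called higher in replicate 2 (adjusted p = 0.00436, exact binomial test) and Des, at 25 and 67 counts, was not called. Their part in the difference of Ank1-201 was not tested.

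Most of the Epb41 level lay on a transcript with no annotated protein. Epb41-215 held 70.7% and 83.8% of the TPM (83.4 and 106 TPM, 12506 and 28250 counts). Epb41-213, a protein-coding model with an incomplete end, held 28.3% in replicate 1 and 2.91% in replicate 2 (33.3 and 3.67 TPM). Over protein-coding transcripts alone the gene's level was 34.46 and 19.95 TPM, 27.2 ± 10.3 TPM (SD, n = 2). Transcripts of Epb41 with a whole coding sequence summed to 0 TPM in replicate 1 and 14.6 TPM in replicate 2.

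Epb41-215 contains neither of the 2 start codons annotated in full coding models, at chr4:132007431 and chr4:132006066. Its longest reading frame opens at chr4:132003638, runs for 594 codons and ends at the annotated end of the Epb41 proteins. That start codon lies in the coding sequence of 9 of 9 annotated proteins that cover it, in their frame. As background, protein 4.1R of mature red cells begins at a downstream start codon, in transcripts where the exon with the upstream one is skipped. The first 60 bases of this frame are shown because they are where the longest frame of the most abundant Epb41 transcript begins, with the start codon in capitals.
Epb41-215 (chr4:132000299-132003638, minus strand): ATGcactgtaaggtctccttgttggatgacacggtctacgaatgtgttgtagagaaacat

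The 63-base exon of Epb41 (chr4:131962924-131962986), shown in capitals above, was a minority form. Transcripts that carry it held 29.1% of the TPM of those that span it in replicate 1 and 9.39% in replicate 2, 19.3 ± 14.0% (SD, n = 2). Inclusion of this exon is known to rise late in erythroid maturation and to strengthen binding of spectrin and actin. In replicate 1 nearly all of the 34.3 TPM that carry the exon lay on Epb41-213. In replicate 2 the 11.8 TPM that carry it lay mainly on Epb41-204 (6.76 TPM) and Epb41-213 (3.67 TPM), and Epb41-203 (6.46 TPM) skipped it as Epb41-215 does. Over protein-coding transcripts alone the share was 99.4% and 59.1%, so the choice of models decides whether the exon is in the lesser or the greater part.

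The level of Epb41 also divided by start site. The group at chr4:132075321, with Epb41-215, held 70.7% and 89.2% of the TPM, and the group at chr4:132049091, with Epb41-213, held 28.3% and 8.97%. In replicate 2 this was not the division by exon, since Epb41-204, which carries the exon, starts in the first group and Epb41-203, which skips it, in the second. Over protein-coding transcripts alone the first group held 0% and 33.9%, a mean of 16.9% against 80.0% over all transcripts. The bases before the RefSeq start of each group are shown from the RefSeq promoter table (GRCm38.p6) because these sites carry nearly all of the gene's level. Those RefSeq starts, chr4:132075313 and chr4:132049078, lie a few bases inside Epb41-215 and Epb41-213, so the last bases of each line belong to the transcript. Capitals mark letters of a GATA motif on either strand. The motif AGATAA was searched, then the form TGATAA with another first base, then each with a last G, which gives AGATAG for the first form and, for the second of these, TGATAG.
Epb41, before the start of Epb41-215 (chr4:132075314-132075563, minus strand): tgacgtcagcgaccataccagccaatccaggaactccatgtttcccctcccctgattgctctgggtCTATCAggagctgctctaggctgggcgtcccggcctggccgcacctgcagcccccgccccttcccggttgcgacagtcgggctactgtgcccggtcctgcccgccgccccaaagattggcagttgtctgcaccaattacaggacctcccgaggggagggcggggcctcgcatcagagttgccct
Epb41, before the start of Epb41-213 (chr4:132049079-132049328, minus strand): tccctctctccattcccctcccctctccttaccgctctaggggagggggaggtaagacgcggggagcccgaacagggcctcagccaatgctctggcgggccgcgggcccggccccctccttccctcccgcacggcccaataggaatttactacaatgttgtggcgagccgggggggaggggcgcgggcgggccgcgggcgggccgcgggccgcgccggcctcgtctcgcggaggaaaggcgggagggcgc
The first window held 1 match, beginning 184 bases before the RefSeq start, and the second held none. RefSeq windows of 300 bases were found for 7 of the 9 members, 10 windows in all, and 6 of these held a match, against 29.8% of all 32851 windows. In 4 of the 6 the match lay before the start, and in the windows of Sptb and of the Epb41 start at chr4:132072097 it lay at or after it. That Epb41 start carried 0.0600% and 0.150% of the gene's TPM, and the Add2 window had no deposited transcript starting within 100 bases. Within 100 bases of the Sptb window's start only Sptb-201 began, with 6.12% and 7.46% of the gene. For Tmod1 it was only Tmod1-205, at 0 TPM. For Add1 the share was 8.83% and 8.84%, and for Sptan1 7.63% and 7.70%. The count of windows with a match is therefore not one of start sites in main use. The window of Add1 held none, and those at the starts of Sptbn1-203 and Sptbn1-202 held 1 each. A match is a run of letters and not a measured binding site.

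Add1 was likewise placed mainly on short or partial models. Add1-210, a non-coding transcript of 412 bases, held 48.4% and 33.4% of the TPM (361 and 200 TPM) from 9.62% and 5.44% of the gene's counts. Add1-213, a coding model without an annotated start, held 36.8% and 48.8%, and Add1-204, which codes for the whole 632-residue protein, held 8.83% and 8.84% (65.96 and 53.01 TPM). Of the bases of Add1-213, 97.9% lie in exons of Add1-204. Over protein-coding transcripts Add1 was at 366 and 364 TPM, 365 ± 1.90 TPM (SD, n = 2), against 673 ± 104 TPM over all. Transcripts with a whole coding sequence summed to 66.6 and 53.9 TPM.

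Dmtn was spread over 3 coding transcripts, all that the deposited annotation held, against 10 in GENCODE M21, so other forms could not be separated. Dmtn-201 was 4129 bases in the deposited annotation and 5418 in M21, and Dmtn-203 was 4187 and 4176. The exon and start positions below are those of the M21 models. Dmtn-203 held 45.1% and 55.5%, Dmtn-201 33.3% and 29.1%, and Dmtn-202 21.5% and 15.4%, in the same order in both libraries. Between the first pair, the 66-base exon that one carries and the other lacks was carried by 42.5% and 34.4% of the TPM, 38.4 ± 5.70% (SD, n = 2). With Dmtn-202, which carries an overlapping form of the exon, the share was 54.9% and 44.5% of the gene. This exon adds an insertion to the dematin headpiece and separates the larger from the smaller dematin subunit of the red cell, and transcripts of both forms were listed in each library. First exons at chr14:70627054 served 78.5% and 84.6% of the TPM and that of Dmtn-202 at chr14:70636048 the rest.

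Add2 had 1 transcript in the deposited annotation, Add2-201, which codes for 725 residues, against 10 in GENCODE M21, so its forms could not be separated. Tmod1-201 held 100% and 92.7% of Tmod1, on 97 and 382 counts.

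**Figure D5:**
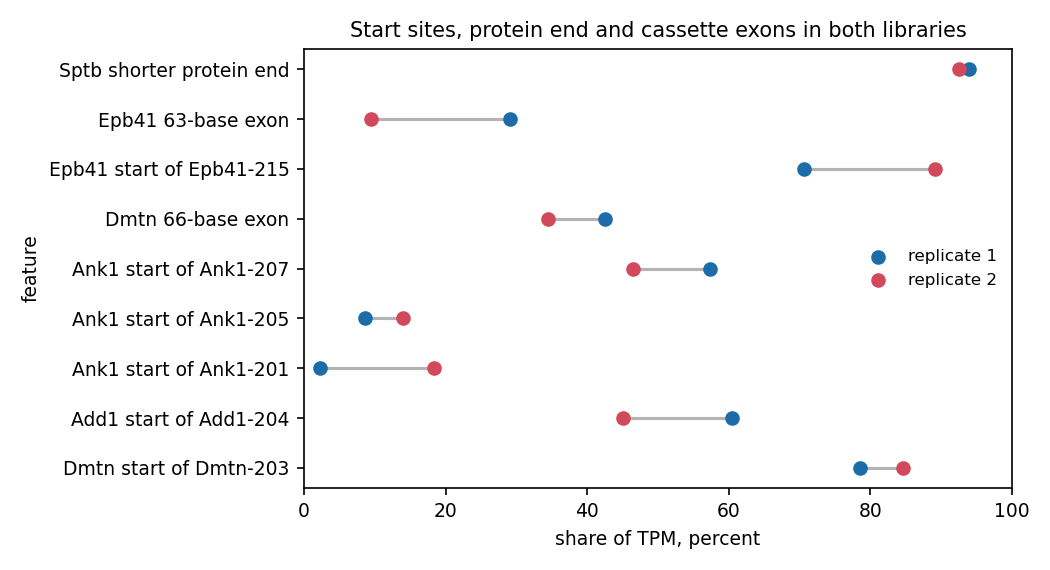
Share of TPM (x axis, percent) for each start site, protein end or cassette exon (y axis) in replicate 1 (blue) and replicate 2 (red). The shorter Sptb end lies above 90% in both libraries, and the Epb41 exon and the Ank1 start of Ank1-201 differ most for their size.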

How the data were processed

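RNA levels were taken from gene and transcript tables of 2 polyA RNA-seq libraries, 1 group with no control. The authors deposited estimated counts per gene and transcript, which need not be whole, with TPM and FPKM that divide by effective length, per the file headers. The isoform share in percent, posterior standard deviations and interval bounds (a signal that is never negative) are also deposited values. The assembly is mm10 and the annotation GENCODE M4, per the deposited notes; aligner, quantifier version and strand setting: not given in the sources used here. The authors' median length minus effective length over transcripts of 1000 bases or more was 146.8 and 155.7 bases.

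Symbols, exons and coding sequences came from GENCODE M21 (GRCm38). All 81 transcripts matched, 72 of them with equal length. The deposited gene counts of all 9 members were exactly whole numbers in both libraries. Unnamed entries held 2 and 0 counts and stayed out of library sizes. Both libraries were scaled with TMM (edgeR 4.0.16) and, as an alternative, DESeq2 1.42.0 size factors. The binomial test (scipy 1.17.1) used genes with 10 or more counts in sum and added 0.5 counts for folds. It was tested on simulated libraries with counting error only, so that check does not cover any further difference between replicates. With 1 group, edgeR's quasi-likelihood test has no contrast to fit. Pair ratios added 0.1 TPM. Start sites were grouped where first exons overlap, and exon shares used transcripts that span the exon. The members and lists were chosen with earlier results of these data known, and all 9 members, transcripts at 5% or more, every pair partner, and in each class the highest gene and those under 0.1 TPM were named, except that some listed genes, their pairs and a sequence are not reported here. Alternatives were FPKM, posterior means, counts without length, protein-coding transcripts only, other pseudocounts, filters and folds, and each library alone. The libraries are called replicates in the labels and p-values measure only counting error between them.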

Additional observations from a re-analysis of the deposited data

How the results depend on the processing

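The 6 higher members stayed the same 6 in FPKM, posterior mean TPM, scaled counts and TPM of protein-coding transcripts, and by TPM in each library alone. Over transcripts with a whole coding sequence this did not hold in replicate 1, where Epb41 was at 0 TPM and Tmod1 at 1.06 TPM. In replicate 2 Epb41 was at 14.6 TPM in that unit. Of 14 pairs, 12 to 13 were larger than the spread under the pseudocounts, units and posterior means tried, with Tmod1 over Tmod2 lost at a pseudocount of 1, and of 8 neighbour steps 3 to 4. Add1 over Ank1 turned to -1.0 (log2) in scaled counts not divided by length, where Dmtn over Epb41 fell short of the spread at 0.31, Sptb over Add1 passed it at 2.57, and Sptb over Sptan1 was 10.97 in place of 8.41. At a fold limit of 2, 2444 genes were called in place of 4649, and 1 member in place of 3; other scalings and filters gave 4641 to 4910 genes and 2 to 3 members. Restricting to protein-coding transcripts moved the share of the Epb41 63-base exon from 19.3% to 79.3% and that of the Epb41-215 start from 80.0% to 16.9%. By posterior means the Sptb end stayed at 93.2%. The Dmtn exon went from 38.4% to 38.0%, and the main Ank1 start from 51.9% to 48.2%. Over protein-coding transcripts that Ank1 start was at 50.7%. These shifts were within the SD of the 2 libraries. Protein-coding transcripts held all of the Sptb and Dmtn TPM, so that alternative could not move their shares. Each library alone was no test here, because with 2 libraries either value always lies within the SD of their mean. The pair rule needs both libraries, so it was not run with 1 left out. No paired analysis was possible because the labels give 1 group only. With 2 libraries, SDs are imprecise, and members under 3 TPM rest on 88 to 625 counts.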
